A study of Mus musculus with 24 samples.

Results

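Chromatin accessibility was described around 8 genes that are used as marks of the formative and primed stages of mouse pluripotency: Fgf5, Otx2, Pou3f1, Zic2, Zic5, Grhl2, Foxd3 and Cdh2. An interval of open chromatin was counted as a member when it overlapped the GRCm38 body of 1 of these genes extended by 20 kb on each side, whatever its value. The rule used no measured value. It gave 134 of the 299780 intervals in the table of untreated cells and 134 of the 272268 intervals in the table of inhibitor-treated cells, for 8 of 21896 protein-coding genes. Windows of neighbouring genes overlap, so that Zic2 and Zic5 share intervals and each shared interval was counted once in the totals. The windows of Zic2 and Zic5 also reach into Pcca, that of Pou3f1 into Utp11 and that of Grhl2 into Ncald.

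The measurements were ATAC-seq, in which the transposase Tn5 cuts into open chromatin and leaves sequencing adapters, made on 50000 E14 mouse embryonic stem cells per library. All 24 libraries came from cells on gelatin in medium with fetal bovine serum and leukemia inhibitory factor. A wild-type line (WT) was set against 2 lines labelled as Smad2 knockouts, Smad2_KO1 and Smad2_KO2. Each line was untreated (Ctrl) or kept for 12 hours in 200 nM INK128 (Paused), which blocks the growth kinase mTOR, and each of the 6 groups had 4 libraries. SMAD2 is the transcriptional effector of Nodal and activin signalling, and the series asks about this pathway in paused cells. The knockout is represented by 2 lines and WT by 1, so that a difference shared by both knockout lines cannot be told apart from a trait of this WT line. The labels do not say whether the 4 libraries of a group came from separate cultures, so that p-values measure the spread between these libraries, which may be technical.

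Embryonic stem cells held in serum and leukemia inhibitory factor sit mainly in the naive state, which resembles the epiblast before implantation. When they leave it they pass through a formative state, in which the transcription factors OTX2 and POU3F1 help OCT4 to move to other enhancers, and then reach the primed state of the epiblast after implantation. Nodal and activin, signalling through SMAD2 and SMAD3 with partners such as FOXH1, are known to sustain the primed state. Accessibility describes open DNA near a gene and not the gene's RNA.

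Promoter sequences bear on these data at 3 genes, because an interval of the tables covers part of the promoter of Fgf5, Otx2 and Zic5. The sequences are the RefSeq windows on GRCm38.p6 from 250 bases before to 50 bases after an annotated start, written 5′ to 3′ on the strand of the gene. Capitals mark the bases that lie inside an interval of the Paused table. The Fgf5 window is chr5:98253934-98254233 on the plus strand, with 29 bases inside the interval. The Otx2 window is chr14:48662685-48662984 on the minus strand, with 68 bases inside an interval that was lower in both knockout lines under Paused. The Zic5 window is chr14:122465609-122465908 on the minus strand, with 57 bases inside an interval that was not called.
Fgf5: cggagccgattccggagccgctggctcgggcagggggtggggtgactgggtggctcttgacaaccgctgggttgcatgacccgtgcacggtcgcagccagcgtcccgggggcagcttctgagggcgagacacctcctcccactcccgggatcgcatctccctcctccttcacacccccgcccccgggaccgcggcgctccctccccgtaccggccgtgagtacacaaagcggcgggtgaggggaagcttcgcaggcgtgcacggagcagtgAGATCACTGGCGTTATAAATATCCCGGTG
Otx2: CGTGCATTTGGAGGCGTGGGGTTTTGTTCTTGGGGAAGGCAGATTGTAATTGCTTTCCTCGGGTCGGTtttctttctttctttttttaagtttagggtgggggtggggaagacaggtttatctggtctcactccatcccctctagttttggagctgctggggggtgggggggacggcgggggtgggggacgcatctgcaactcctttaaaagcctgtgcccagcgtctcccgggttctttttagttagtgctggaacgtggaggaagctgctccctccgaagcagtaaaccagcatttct
Zic5: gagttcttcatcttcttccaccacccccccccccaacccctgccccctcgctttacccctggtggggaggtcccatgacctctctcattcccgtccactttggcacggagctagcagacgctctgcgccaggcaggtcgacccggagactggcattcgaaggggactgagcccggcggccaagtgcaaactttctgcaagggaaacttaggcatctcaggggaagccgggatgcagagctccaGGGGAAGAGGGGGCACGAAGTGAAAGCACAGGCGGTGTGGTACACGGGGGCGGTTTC
The letters of short motifs were searched on both strands of these 3 windows. The SMAD box CAGAC occurred once in the Zic5 window, from base 115, and it occurs in 49.6% of the 32851 RefSeq promoter windows of the same length. The palindromic SMAD site GTCTAGAC (in 0.213% of promoter windows), the FOXH1 motif AATNCACA (3.60%), the OTX2 motif GGATTA (7.06%), the octamer ATTTGCAT bound by POU factors (1.74%) and the ZIC motif CAGCAGG (10.5%) were not found as letters in the 3 windows.

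Library sizes, in reads inside intervals recovered from the deposited values, lay between 11.8 and 16.5 M reads in Ctrl and between 11.5 and 20.0 M reads in Paused. Among the Paused libraries, replicate 2 of Smad2_KO1 and replicate 2 of Smad2_KO2 differed by no more than sampling noise, with a chi-square per degree of freedom of 1.001 over intervals where noise allows up to 1.006. In Ctrl, replicate 4 of both knockout lines was the closest pair, at 1.016 against a noise limit of 1.005. Like numbers went together across the knockout lines. In Paused the 4 same-numbered pairs of Smad2_KO1 and Smad2_KO2 lay between 1.001 and 1.074, below all pairs of other numbers (1.099 to 1.487) and all pairs within a knockout line (1.111 to 1.480). In Ctrl they lay between 1.016 and 1.270, and the same-numbered library was the closest one of the other line for 3 of the 4 Smad2_KO1 libraries. The labels give these libraries to different lines, so they were kept apart, but the fit takes them as independent, and a call in both lines may not rest on separate observations. The strongest interval of the pluripotency markers Pou5f1, Sox2, Nanog, Klf4, Esrrb, Zfp42, Tfcp2l1 and Prdm14 had a median of 421 normalized reads in Ctrl and 488 in Paused. The corresponding median was 218 and 251 for 5 primitive endoderm genes, 197 and 259 for 4 trophoblast genes, 138 and 166 for 4 mesendoderm genes and 88.7 and 104 for 3 fibroblast genes. For the liver and muscle genes Alb and Myod1, not used in embryonic stem cells, it was 100 and 134. Their values were 22.6 and 178 in Ctrl and 23.3 and 245 in Paused. These levels alone therefore do not name the cell type. Of the windows of these markers and of Alb and Myod1, 1 was called higher in both knockout lines in Ctrl (Zfp42) and 3 lower (Eomes, T and Foxa2). In Paused, 1 was higher (Alb) and 8 lower (Nanog, Sox2, Gata4, Cdx2, T, Foxa2, Col1a2 and Myod1). Over the windows of all protein-coding genes, 3.35% were called higher and 5.04% lower in Ctrl. In Paused these shares were 6.62% and 20.6%. The part of these markers in the results below was not tested. At Smad2 itself, the strongest interval held 362, 363 and 355 normalized reads in WT, Smad2_KO1 and Smad2_KO2 in Ctrl, and 441, 400 and 389 in Paused. Of the intervals tested inside the gene, 0 of 7 were called in Ctrl and 2 of 11 in Paused, the latter higher in the knockout lines. Over all tested intervals, 9.01% were called higher in Paused. These values do not check the deletion, since a gene without its protein can keep an open promoter.

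A difference was tested with limma on log2(normalized reads + 1) over all intervals with at least 10 normalized reads in at least 4 libraries, with Benjamini-Hochberg adjustment over all of them. An interval was called when both knockout lines differed from WT at an adjusted p under 0.05 with the same sign. Of the members, 128 in Ctrl and 132 in Paused were tested. In Ctrl, 18 were called, 5 higher and 13 lower in the knockout lines, where 7.15% of all tested intervals were called, 3.95% higher and 3.20% lower. In Paused, 21 were called, 7 higher and 14 lower, where 13.9% of all tested intervals were called, 9.01% higher and 4.92% lower. Calls at the members were thus 14.1% and 15.9% of those tested, and lower calls were 10.2% and 10.6%. With size factors computed by DESeq2 from the recovered reads in place of the deposited scaling, the members split into 4 higher and 19 lower in Ctrl, where 2.84% of all intervals were called higher and 4.74% lower. In Paused they split into 4 higher and 22 lower, against 6.01% and 8.65%. With DESeq2's Wald test, none of the 5 higher calls in Ctrl and 1 of the 7 in Paused remained, with 14 and 16 calls in all, against 4.06% and 8.89% of all intervals. At an absolute log2 difference of at least 1 in both lines, 1 member remained in Ctrl and 2 in Paused, all of them in Cdh2, against 1.51% and 2.65% of all intervals.

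With the knockout libraries of each number averaged into 1, all 18 and 21 calls remained among 27 in Ctrl and 30 in Paused, where 12.4% and 18.9% of all intervals were called. That fit sets 1 averaged knockout group against WT, so a call needed 1 adjusted p and not 1 for each line. An interval that passed in both lines readily passes this looser rule. The kept calls therefore do not show that same-numbered libraries are separate observations. Without the closest pair of knockout libraries, 10 of the 18 calls in Ctrl and 13 of the 21 in Paused remained and no others were made, against 5.63% and 7.03% of all intervals. Leaving out 1 knockout library alone keeps its same-numbered partner in the fit. Without WT replicates 3 and 4, which stood apart from WT replicates 1 and 2 at several members below, 10 members were called in Ctrl, 7 of them among the 18, and 18 in Paused, 15 of them among the 21, against 3.29% and 10.8% of all intervals. The Ctrl count was 11 without WT replicate 4. With edgeR's quasi-likelihood test, 17 of the 18 calls in Ctrl and 19 of the 21 in Paused remained, where 7.34% and 13.7% of all intervals were called. Single libraries whose omission ended a call are named beside that call. All 8 knockout libraries were below all WT libraries at 11 members in Ctrl, against 3.32% of all tested intervals, and at 10 in Paused, against 4.20%. They lay above all WT libraries at 4 members in each table, against 4.16% and 7.25%.

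Lower calls fell on more accessible intervals than higher calls did. The median level over 12 libraries was 80.4 normalized reads for the 13 lower members in Ctrl and 33.6 for the 5 higher ones, and 100.02 and 29.4 for the 14 lower and 7 higher members in Paused. The same tilt ran through the whole tables. In the most accessible decile of all intervals the median log2 difference was -0.07 in Ctrl and -0.14 in Paused, and lower calls made up 6.46% and 18.1% there. In the least accessible decile the median was 0.23 and 0.36. The part of this tilt in the members' calls was not tested. No member differed between Smad2_KO1 and Smad2_KO2 at an adjusted p under 0.05 in either table (limma; 0.00% of all intervals), and 6 members in Ctrl and 4 in Paused did at an unadjusted p under 0.05, where 3.28% and 1.97% of all intervals did.

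**Figure D1:**
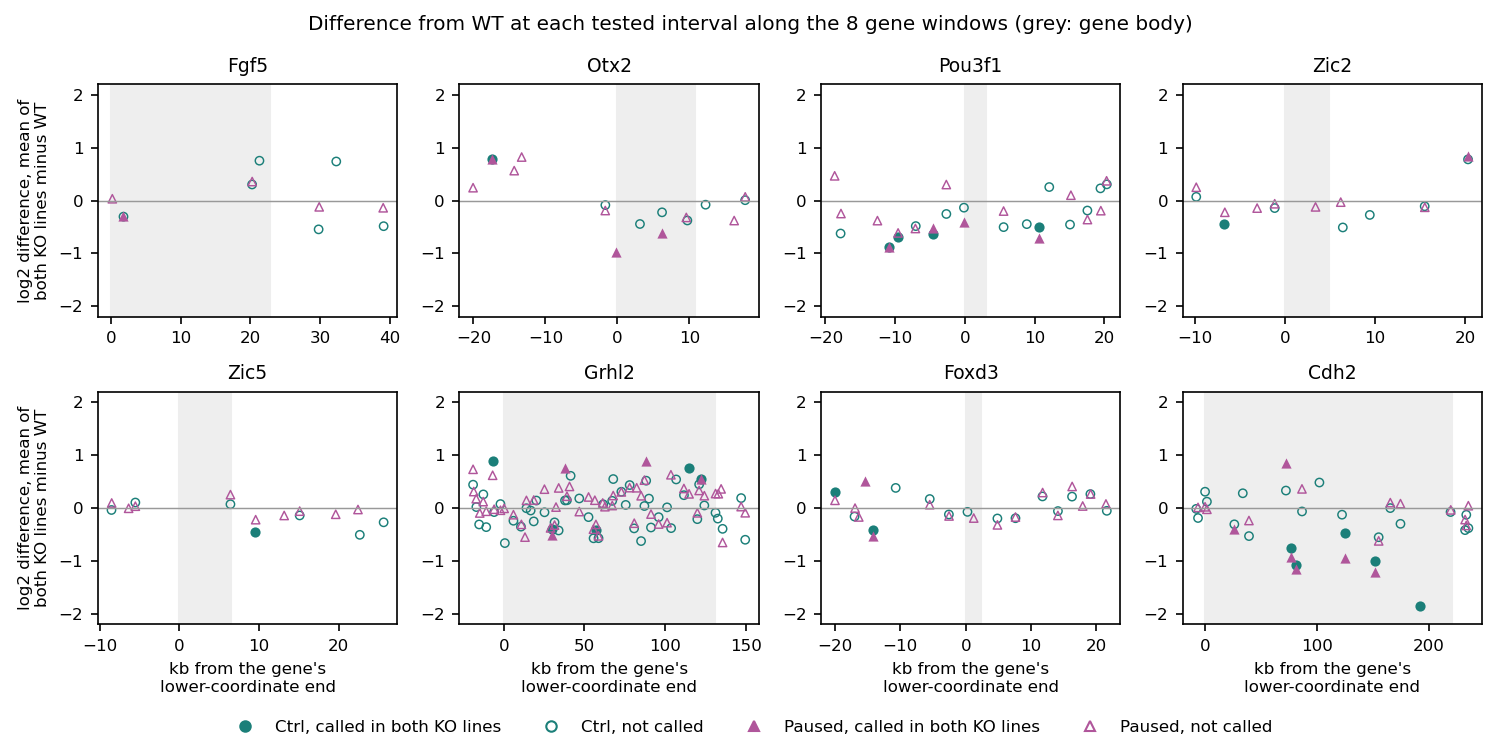
The vertical axis is the log2 difference in normalized reads between the mean of both knockout lines and WT, and the horizontal axis is the distance in kb from the lower-coordinate end of the gene, for every tested interval of the 8 windows. Circles are Ctrl and triangles Paused, filled where both knockout lines were called, and grey spans are gene bodies; the filled symbols at Pou3f1 all lie below 0, as do all filled symbols at Cdh2 other than 1 triangle.

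Summed over a whole window, accessibility fell in both knockout lines at Pou3f1 and Cdh2 in both treatments, and at Otx2 under Paused. The window sums were fitted over all protein-coding genes, of which 8.39% were called in Ctrl (3.35% higher and 5.04% lower) and 27.2% in Paused (6.62% higher and 20.6% lower), so that the Paused calls stand against a high background. At Pou3f1 in Ctrl the sums per library were 913, 975, 1093 and 1129 in WT, 737, 645, 812 and 743 in Smad2_KO1, and 741, 768, 757 and 777 in Smad2_KO2. Every knockout library was below every WT library. On the log2 scale the difference was -0.48 ± 0.07 in Smad2_KO1 (SE, limma adjusted p = 3.83e-07) and -0.43 ± 0.07 in Smad2_KO2 (adjusted p = 5.42e-06). At Pou3f1 in Paused the sums were 1135, 1046, 1149 and 1263 in WT, 829, 812, 841 and 858 in Smad2_KO1, and 768, 796, 843 and 829 in Smad2_KO2. Again no knockout library reached a WT library, and the log2 difference was -0.46 in Smad2_KO1 and -0.50 in Smad2_KO2 (limma adjusted p = 5.50e-08 and 5.22e-09).

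At Cdh2 the window sums in Ctrl were 898, 854, 851 and 822 in WT, 692, 754, 637 and 663 in Smad2_KO1, and 748, 718, 599 and 591 in Smad2_KO2. The groups did not overlap. Relative to WT, the log2 difference was -0.32 ± 0.07 in Smad2_KO1 (SE, limma adjusted p = 0.000828) and -0.37 ± 0.07 in Smad2_KO2 (adjusted p = 0.000106). In Paused the Cdh2 sums were 785 ± 64.1 in WT, 631 ± 44.9 in Smad2_KO1, and 623 ± 11.0 in Smad2_KO2 (mean ± SD, n = 4 each), also without overlap, with a log2 difference of -0.31 in Smad2_KO1 and -0.33 in Smad2_KO2 (limma adjusted p = 0.000168 and 7.60e-05). At Otx2 under Paused the sums were 1038, 963, 824 and 991 in WT, 834, 798, 797 and 847 in Smad2_KO1, and 811, 907, 817 and 905 in Smad2_KO2. WT replicate 3 lay within the range of the knockout libraries. The log2 difference was -0.21 in Smad2_KO1 and -0.15 in Smad2_KO2 (limma adjusted p = 0.00448 and 0.0468), and the call was lost without any 1 of WT replicates 1, 2 and 4, Smad2_KO1 replicates 1, 2, 3 and 4 or Smad2_KO2 replicates 1 and 3. Taking the mean of log2 values over the intervals of a window, which gives weak intervals the same weight as strong ones, left the Pou3f1 call alone in each table. With an extension of 5 kb in place of 20 kb, Pou3f1 was no longer called in Ctrl and Cdh2 was.

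The windows of Fgf5, Zic2, Zic5, Grhl2 and Foxd3 were not called. The Fgf5 sum in Ctrl was 496 ± 27.4 in WT, 427 ± 18.2 in Smad2_KO1, and 400.0 ± 51.2 in Smad2_KO2 (mean ± SD, n = 4 each), with every knockout library below every WT library. Its log2 difference was -0.21 in Smad2_KO1 and -0.32 in Smad2_KO2 (limma adjusted p = 0.0524 and 0.00339), and the window was called without WT replicate 3 or without Smad2_KO2 replicate 3. Zic2 and Zic5 sums overlapped between lines in both tables. Under Paused the difference at Zic2 was -0.04 and -0.00 on the log2 scale, and at Zic5 -0.02 and 0.00. Grhl2 held the largest sums, 2424 ± 101 in WT, 2300.1 ± 104 in Smad2_KO1, and 2279.9 ± 228 in Smad2_KO2 (mean ± SD, n = 4 each) in Ctrl, in a window of 171 kb, and Foxd3 sums differed by no more than -0.08 on the log2 scale in either line and treatment.

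**Figure D2:**
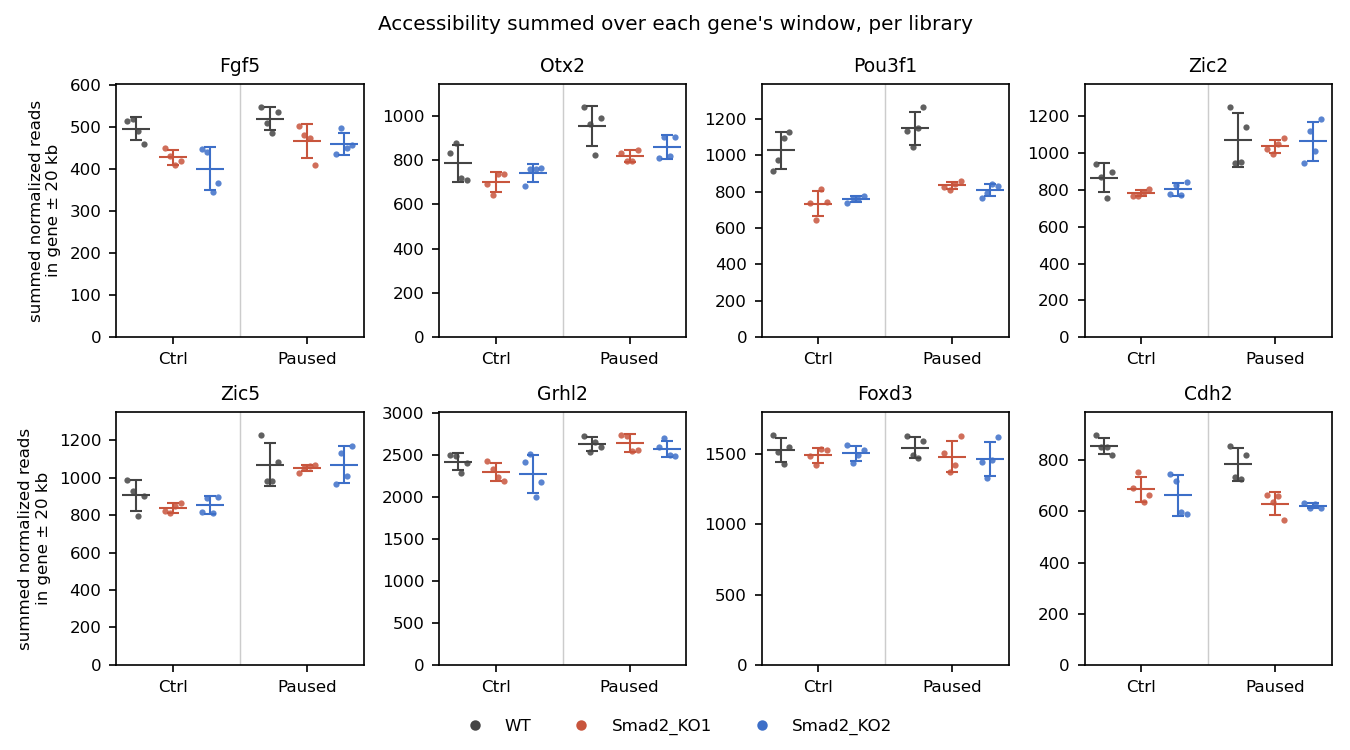
The vertical axis is the sum of normalized reads over all intervals of a gene's window and each point is 1 library, with the mean and SD of the 4 libraries of a line, for Ctrl on the left and Paused on the right. The knockout libraries lie below all WT libraries at Pou3f1 and Cdh2 in both treatments, while the Zic2, Zic5, Grhl2 and Foxd3 groups overlap.

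Pou3f1 encodes a POU-domain transcription factor, also called OCT6, that comes on in the formative epiblast. Of its 15 tested intervals in each table, 4 were called in Ctrl and 4 in Paused, all lower, or 26.7% in each. Over all tested intervals, 3.20% were called lower in Ctrl and 4.92% in Paused. The leading Pou3f1 interval lies 10.7 kb from the lower-coordinate end of the gene, at chr4:124646713-124646913, outside the RefSeq protein-coding gene bodies. Under Ctrl its normalized reads were 224, 234, 301 and 291 in WT, 133, 127, 142 and 159 in Smad2_KO1, and 155, 145, 148 and 123 in Smad2_KO2 per library. All 8 knockout libraries were below the lowest WT library, and WT replicates 3 and 4 stood above WT replicates 1 and 2. On the log2 scale the difference was -0.89 ± 0.11 in Smad2_KO1 (SE, limma adjusted p = 2.67e-07) and -0.87 ± 0.11 in Smad2_KO2 (adjusted p = 4.41e-07).

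The same element was found at chr4:124646710-124646910 in the Paused table. There it held normalized reads of 249, 240.4, 323 and 294 in WT, 137, 143, 165 and 157 in Smad2_KO1, and 141, 159, 159 and 135 in Smad2_KO2. The groups again did not overlap, and the WT libraries split in the same way. Its log2 difference was -0.87 ± 0.11 in Smad2_KO1 (SE, limma adjusted p = 4.04e-07) and -0.89 ± 0.11 in Smad2_KO2 (adjusted p = 2.63e-07). In both tables the call held at an adjusted p under 0.05 in every alternative fit, with a largest adjusted p of 1.80e-05 in Ctrl and 1.17e-05 in Paused when any 1 library was left out.

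A second Pou3f1 element, 4.45 kb from the lower-coordinate end at chr4:124652994-124653194 in both tables, was lower as well. The Ctrl libraries held normalized reads of 67.3, 83.3, 73.4 and 89.5 in WT, 44.5, 39.1, 67.5 and 50.8 in Smad2_KO1, and 53.1, 51.0, 45.7 and 52.3 in Smad2_KO2. Replicate 3 of Smad2_KO1 just exceeded the lowest WT library and the other knockout libraries were below it. Relative to WT, the log2 difference was -0.65 in Smad2_KO1 and -0.62 in Smad2_KO2 (limma adjusted p = 0.00408 and 0.00642). In Paused the element held 114 ± 11.5 in WT, 83.9 ± 9.25 in Smad2_KO1, and 75.0 ± 9.15 in Smad2_KO2 (mean ± SD, n = 4 each), with no overlap and a log2 difference of -0.44 in Smad2_KO1 and -0.60 in Smad2_KO2 (limma adjusted p = 0.0135 and 0.00102). The Ctrl call was lost when WT replicates 3 and 4 were left out together, and the Paused call without Smad2_KO1 replicate 1 (adjusted p = 0.0512).

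On the other side of Pou3f1, 7.52 kb from its higher-coordinate end, an element at chr4:124668171-124668371 held normalized reads of 111, 117, 111 and 93.8 in WT, 82.9, 83.3, 85.3 and 63.5 in Smad2_KO1, and 67.1, 85.5, 70.1 and 72.5 in Smad2_KO2 in Ctrl. All knockout libraries were below all WT libraries. Its log2 difference was -0.46 in Smad2_KO1 and -0.55 in Smad2_KO2 (limma adjusted p = 0.0175 and 0.00454). In Paused, at chr4:124668183-124668383, it held 70.2, 62.3, 69.0 and 68.9 in WT, 46.6, 45.3, 38.0 and 34.8 in Smad2_KO1, and 28.0, 39.0, 50.5 and 52.5 in Smad2_KO2, again without overlap. The Paused difference was -0.71 in Smad2_KO1 and -0.70 in Smad2_KO2 (limma adjusted p = 0.00286 and 0.00348). The Ctrl call was lost without Smad2_KO1 replicate 4 (largest adjusted p = 0.0842), and the Paused call held at that adjusted p in every alternative fit.

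The most accessible Pou3f1 interval lies next to the gene, 37 bases from its lower-coordinate end, at chr4:124657409-124657609. In Ctrl it held normalized reads of 298, 256, 215 and 330.0 in WT, 265, 179, 289 and 246 in Smad2_KO1, and 242, 248, 246 and 279 in Smad2_KO2. The lines overlapped in part, with WT replicates 1 and 4 above all knockout libraries and Smad2_KO1 replicate 2 below all WT libraries. The log2 difference at this interval was -0.17 in Smad2_KO1 and -0.10 in Smad2_KO2 (limma adjusted p = 0.347 and 0.644) and was not called. Under Paused its values were 399, 332, 259 and 418 in WT, 272, 251, 268 and 301 in Smad2_KO1, and 254, 206, 236 and 304 in Smad2_KO2. WT replicate 3 lay within the knockout range, and the other WT libraries were above it. The difference of -0.35 in Smad2_KO1 and -0.48 in Smad2_KO2 (limma adjusted p = 0.0247 and 0.00214) was called, and the call was lost without any 1 of WT replicates 1 and 4 and Smad2_KO1 replicates 1, 2 and 3 (largest adjusted p = 0.117) and without both replicate 2 knockout libraries. Whether the difference from WT changed between Ctrl and Paused was not tested, since the tables were normalized separately.

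Otx2 encodes a homeodomain factor that drives the exit from the naive state. Of its intervals, 1 of 7 was called in Ctrl and 3 of 10 in Paused. These few intervals give 14.3% and 30%, against 7.15% and 13.9% of all tested intervals. The interval that reaches into the promoter printed above, at chr14:48662917-48663117, has its centre 283 bases upstream of that start. The Paused libraries held normalized reads of 151, 158, 106 and 155 in WT, 103, 79.8, 80.3 and 98.3 in Smad2_KO1, and 87.9, 79.5, 96.5 and 115 in Smad2_KO2. WT replicate 3 stood apart from the other WT libraries and lay below 1 knockout library, Smad2_KO2 replicate 4, and every other knockout library was below all WT libraries. The log2 difference was -0.64 ± 0.13 in Smad2_KO1 (SE, limma adjusted p = 0.000728) and -0.58 ± 0.13 in Smad2_KO2 (adjusted p = 0.00214), and the adjusted p stayed under 0.05 in every alternative fit. The matching Ctrl interval, at chr14:48662897-48663097, held 104 ± 17.0 in WT, 83.4 ± 9.78 in Smad2_KO1, and 95.0 ± 16.5 in Smad2_KO2 (mean ± SD, n = 4 each) and was not called, with a difference of -0.31 in Smad2_KO1 and -0.13 in Smad2_KO2 (limma adjusted p = 0.129 and 0.585).

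The strongest Otx2 interval lies 1.57 kb beyond the end of the gene on the lower-coordinate side, which is the 3′ side, at chr14:48655016-48655216. It held 274 ± 24.1 in WT, 252 ± 22.9 in Smad2_KO1, and 264 ± 13.8 in Smad2_KO2 (mean ± SD, n = 4 each) in Ctrl and was not called, with a difference of -0.12 in Smad2_KO1 and -0.05 in Smad2_KO2 (limma adjusted p = 0.444 and 0.797). In Paused it held 399.7 ± 43.2 in WT, 343 ± 11.5 in Smad2_KO1, and 357 ± 16.1 in Smad2_KO2 (mean ± SD, n = 4 each), and its difference of -0.22 in Smad2_KO1 and -0.16 in Smad2_KO2 (limma adjusted p = 0.0612 and 0.173) was not called either. That Paused interval was called with DESeq2's size factors, TMM factors, DESeq2's Wald test and the 8 knockout libraries as 1 group. Between annotated starts, with its centre 992 bases from the nearest, an interval at chr14:48666416-48666616 held 153 ± 13.4 in WT, 115 ± 12.8 in Smad2_KO1, and 121 ± 12.3 in Smad2_KO2 (mean ± SD, n = 4 each) in Ctrl, with all knockout libraries below all WT libraries. It passed in 1 line only, at -0.41 in Smad2_KO1 and -0.34 in Smad2_KO2 (limma adjusted p = 0.0145 and 0.0516). A blocked fit, with a term for the replicate number, called it in both lines (larger limma adjusted p = 0.0484). It was also called in 10 other alternatives, among them DESeq2's size factors and edgeR's test. Some of these take both knockout lines as 1 group.

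A weak Otx2 element, 17.3 kb from the 3′ end at chr14:48639234-48639434, was higher in both tables. Under Ctrl its normalized reads were 13.9, 16.1, 16.4 and 15.1 in WT, 28.2, 25.7, 27.2 and 35.8 in Smad2_KO1, and 23.1, 29.1, 22.3 and 29.2 in Smad2_KO2, with every knockout library above every WT library. On the log2 scale the difference was 0.87 in Smad2_KO1 and 0.71 in Smad2_KO2 (limma adjusted p = 0.00409 and 0.0223). Under Paused its values were 12.9, 25.8, 9.71 and 14.6 in WT, 29.5, 19.0, 20.7 and 28.8 in Smad2_KO1, and 29.0, 28.5, 33.7 and 24.1 in Smad2_KO2, and WT replicate 2 lay among the knockout libraries. The Paused difference was 0.67 in Smad2_KO1 and 0.91 in Smad2_KO2 (limma adjusted p = 0.045 and 0.00693). The Ctrl call was lost without any 1 of WT replicate 1 and Smad2_KO2 replicates 2 and 4 (largest adjusted p = 0.0764), and the Paused call without any 1 of WT replicates 1, 3 and 4, Smad2_KO1 replicates 1, 3 and 4 and Smad2_KO2 replicates 1, 2 and 3 (largest adjusted p = 0.154). The Paused call also ended with DESeq2's size factors, TMM factors and edgeR's test. The remaining call, lower in Paused at chr14:48656474-48656674, just beyond the 3′ end, rested on 23.0 ± 6.76 in WT, 10.2 ± 3.60 in Smad2_KO1, and 13.0 ± 6.38 in Smad2_KO2 (mean ± SD, n = 4 each) and was lost without any 1 of WT replicates 1, 2 and 4, Smad2_KO1 replicates 1 and 3 and Smad2_KO2 replicates 1, 2 and 3 (largest adjusted p = 0.213).

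Foxd3 encodes a forkhead factor that acts as a repressor and pioneer in pluripotent cells as they move from the naive to the primed state. Calls made up 14.3% of the tested Foxd3 intervals in Ctrl and 12.5% in Paused, against 7.15% and 13.9% of all tested intervals. Of the 14 Foxd3 intervals tested in Ctrl and the 16 in Paused, 1 higher and 1 lower were called in each table. The lower one, 14.0 kb from the gene on the upstream side at chr4:99642082-99642282, held normalized reads of 263, 262, 273 and 317 in WT, 172, 192, 194 and 268 in Smad2_KO1, and 218, 174, 219 and 247 in Smad2_KO2 in Ctrl. Smad2_KO1 replicate 4 reached the WT range, and the other knockout libraries were below it. Relative to WT, the log2 difference was -0.45 in Smad2_KO1 and -0.38 in Smad2_KO2 (limma adjusted p = 0.00529 and 0.0183). In Paused, at chr4:99642036-99642236, the element held 141, 145, 154 and 180.1 in WT, 96.9, 83.4, 90.7 and 156 in Smad2_KO1, and 98.9, 84.7, 102 and 172 in Smad2_KO2. Replicate 4 of both knockout lines lay within the WT range and the other 6 knockout libraries were below it.

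The Paused difference at this Foxd3 element was -0.57 in Smad2_KO1 and -0.48 in Smad2_KO2 (limma adjusted p = 0.00802 and 0.0245). The authors' deposited table gives it a false discovery rate of 0.0830 for all 8 knockout libraries against WT, and it was the 1 of 21 called members in Paused that did not pass 0.05 there. The Ctrl call was lost without either of WT replicate 4 and Smad2_KO2 replicate 2 (largest adjusted p = 0.132). The Paused call was lost without any 1 of WT replicate 4, Smad2_KO1 replicate 2 and Smad2_KO2 replicates 1, 2 and 3 (largest adjusted p = 0.138). The higher call was at another interval in each table. In Ctrl it was at chr4:99636152-99636352, 19.9 kb upstream, with 185 ± 7.11 in WT, 229.6 ± 16.9 in Smad2_KO1, and 231 ± 21.4 in Smad2_KO2 (mean ± SD, n = 4 each) and a log2 difference of 0.31 in Smad2_KO1 and 0.31 in Smad2_KO2 (limma adjusted p = 0.0333 and 0.0296).

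In Paused the higher Foxd3 interval was at chr4:99640782-99640982, 15.3 kb upstream. It held normalized reads of 35.6, 31.1, 38.8 and 31.8 in WT, 45.6, 52.6, 50.1 and 52.6 in Smad2_KO1, and 44.0, 53.2, 42.7 and 56.9 in Smad2_KO2, with every knockout library above every WT library. Its log2 difference was 0.54 in Smad2_KO1 and 0.50 in Smad2_KO2 (limma adjusted p = 0.0154 and 0.0241). Both higher calls ended with size factors computed by DESeq2. The Ctrl one was also lost without any 1 of WT replicate 4, Smad2_KO1 replicates 1 and 3 and Smad2_KO2 replicates 1 and 3 (largest adjusted p = 0.138), and the Paused one without any 1 of WT replicates 2 and 4 and Smad2_KO2 replicates 2 and 4 (largest adjusted p = 0.0792). The strongest Foxd3 interval, 11.6 kb beyond the 3′ end at chr4:99670312-99670512, was not called. It held 351 ± 42.4 in WT, 337 ± 23.8 in Smad2_KO1, and 334 ± 11.0 in Smad2_KO2 (mean ± SD, n = 4 each) in Ctrl, with a difference of -0.05 in Smad2_KO1 and -0.06 in Smad2_KO2 (limma adjusted p = 0.752 and 0.719). In Paused, at chr4:99670303-99670503, it held 367 ± 33.9 in WT, 337 ± 29.3 in Smad2_KO1, and 329 ± 17.6 in Smad2_KO2 (mean ± SD, n = 4 each), with a difference of -0.12 in Smad2_KO1 and -0.16 in Smad2_KO2 (limma adjusted p = 0.318 and 0.199). The interval nearest the Foxd3 start, with its centre 274 bases inside the gene at chr4:99656473-99656673, was weak in Ctrl, at 37.2 ± 8.02 in WT, 29.6 ± 10.2 in Smad2_KO1, and 42.6 ± 5.40 in Smad2_KO2 (mean ± SD, n = 4 each), and was not called.

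Zic2 and Zic5 are neighbours that encode zinc-finger factors of the ZIC family, and ZIC2 is known to occupy enhancers in primed cells. An interval between them, at chr14:122468593-122468793, was the only call in their windows in Ctrl. It held normalized reads of 169, 161, 123 and 165 in WT, 101, 116, 103 and 111 in Smad2_KO1, and 99.2, 143, 125 and 104 in Smad2_KO2. WT replicate 3 fell among the knockout libraries, and the other WT libraries were above all of them. The log2 difference was -0.51 in Smad2_KO1 and -0.39 in Smad2_KO2 (limma adjusted p = 0.00457 and 0.0313), and the call was lost without any 1 of WT replicates 1, 2 and 4 and Smad2_KO2 replicates 1 and 4 (largest adjusted p = 0.143). In Paused the only call was higher, at chr14:122495629-122495829, 15.3 kb beyond Zic2 and inside Pcca, with 19.4, 9.66, 16.2 and 13.2 in WT, 25.7, 19.9, 31.1 and 29.8 in Smad2_KO1, and 19.0, 27.8, 32.5 and 27.4 in Smad2_KO2 normalized reads.

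That Pcca interval showed a difference of 0.84 in Smad2_KO1 and 0.84 in Smad2_KO2 (limma adjusted p = 0.00967 and 0.01), with WT replicate 1 just inside the knockout range. The most accessible interval of both windows, 1.03 kb from Zic2 at chr14:122474158-122474358, was not called. It held 280.3 ± 40.7 in WT, 249 ± 14.2 in Smad2_KO1, and 256 ± 23.1 in Smad2_KO2 (mean ± SD, n = 4 each) in Ctrl and 315 ± 36.5 in WT, 299.9 ± 17.4 in Smad2_KO1, and 302 ± 26.4 in Smad2_KO2 (mean ± SD, n = 4 each) in Paused, and the Paused difference was -0.06 ± 0.09 in Smad2_KO1 (SE, limma adjusted p = 0.655) and -0.05 ± 0.09 in Smad2_KO2 (adjusted p = 0.713). The interval over the Zic5 start, whose promoter is printed above, held 225 ± 17.9 in WT, 239 ± 19.1 in Smad2_KO1, and 235 ± 10.6 in Smad2_KO2 (mean ± SD, n = 4 each) in Ctrl and 209 ± 29.6 in WT, 243 ± 19.3 in Smad2_KO1, and 253 ± 33.5 in Smad2_KO2 (mean ± SD, n = 4 each) in Paused. Its differences were 0.08 in Smad2_KO1 and 0.06 in Smad2_KO2 (limma adjusted p = 0.62 and 0.75) and 0.23 in Smad2_KO1 and 0.28 in Smad2_KO2 (limma adjusted p = 0.115 and 0.0483), the second of which passed in 1 line only. This Paused interval was called with the 8 knockout libraries as 1 group and without WT replicate 4.

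Grhl2 encodes a grainyhead factor that opens epithelial enhancers as cells move towards the formative state. Its window holds 54 tested intervals in Ctrl and 57 in Paused, of which 5 (3 higher, 2 lower) and 4 (3 higher, 1 lower) were called. In Ctrl that is 9.26%, against 7.15% of all tested intervals. In Paused it is 7.02%, below the 13.9% of all tested intervals. Higher calls at Grhl2 in Paused were 5.26%, against 9.01%, and lower calls 1.75%, against 4.92%. Inside the gene, 29.7 kb from its lower-coordinate end at chr15:37262492-37262692, an element was lower in both tables. The Ctrl libraries held normalized reads of 220.0, 238, 197 and 214 in WT, 174, 185, 161 and 171 in Smad2_KO1, and 173, 158, 138 and 152 in Smad2_KO2 and the groups did not overlap. On the log2 scale the difference was -0.33 in Smad2_KO1 and -0.48 in Smad2_KO2 (limma adjusted p = 0.0313 and 0.00136). The Paused libraries held 283, 295, 271 and 309 in WT, 228, 205, 176 and 213 in Smad2_KO1, and 199, 181, 196 and 226 in Smad2_KO2, also without overlap.

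The Paused difference there was -0.50 ± 0.10 in Smad2_KO1 (SE, limma adjusted p = 0.000363) and -0.53 ± 0.10 in Smad2_KO2 (adjusted p = 0.000182), and the adjusted p stayed under 0.05 in every alternative fit. The Ctrl call was lost without any 1 of WT replicates 1, 2 and 4 and Smad2_KO1 replicates 1, 3 and 4 (largest adjusted p = 0.0991). Another Grhl2 element, 122 kb into the gene at chr15:37354648-37354848, was higher in both tables. It held normalized reads of 63.0, 74.3, 57.0 and 61.5 in WT, 97.5, 81.2, 92.8 and 85.5 in Smad2_KO1, and 102, 107, 94.5 and 93.6 in Smad2_KO2 in Ctrl. Each knockout library exceeded each WT library. In Paused it held 65.8, 78.4, 82.0 and 58.3 in WT, 111, 112, 108 and 94.3 in Smad2_KO1, and 97.9, 117, 88.7 and 105 in Smad2_KO2, again with no overlap. The differences were 0.48 in Smad2_KO1 and 0.63 in Smad2_KO2 (limma adjusted p = 0.0115 and 0.00083) in Ctrl and 0.59 in Smad2_KO1 and 0.52 in Smad2_KO2 (limma adjusted p = 0.00138 and 0.004) in Paused, and the Ctrl call was lost without Smad2_KO1 replicate 1 (adjusted p = 0.0537).

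Further Grhl2 calls came in 1 table each. In Ctrl, a weak interval 6.74 kb outside the gene at chr15:37225882-37226082 was higher, at 13.9, 17.0, 14.2 and 17.2 in WT, 31.6, 27.8, 27.2 and 35.8 in Smad2_KO1, and 24.1, 36.4, 31.9 and 24.1 in Smad2_KO2. No library overlapped. Its log2 difference was 0.93 in Smad2_KO1 and 0.84 in Smad2_KO2 (limma adjusted p = 0.00219 and 0.00551). An interval 57.0 kb into the gene at chr15:37289849-37290049 was lower in Ctrl, at 114 ± 4.70 in WT, 84.6 ± 3.55 in Smad2_KO1, and 86.1 ± 6.47 in Smad2_KO2 (mean ± SD, n = 4 each), with a difference of -0.42 in Smad2_KO1 and -0.40 in Smad2_KO2 (limma adjusted p = 0.0177 and 0.0263) that was lost without any 1 of WT replicate 1, Smad2_KO1 replicate 3 and Smad2_KO2 replicates 3 and 4 (largest adjusted p = 0.0854). In Paused, an interval 88.1 kb into the gene at chr15:37320943-37321143 was higher, at 16.2, 25.8, 17.3 and 14.6 in WT, 39.0, 31.7, 44.9 and 28.8 in Smad2_KO1, and 31.0, 41.2, 25.8 and 36.1 in Smad2_KO2, without overlap. Its difference was 0.94 in Smad2_KO1 and 0.84 in Smad2_KO2 (limma adjusted p = 0.00143 and 0.00416) and passed at an adjusted p under 0.05 in every alternative fit. The strongest Grhl2 interval in Ctrl, 16.8 kb outside the gene at chr15:37215785-37215985, held 242 ± 31.9 in WT, 249.6 ± 30.2 in Smad2_KO1, and 242 ± 48.0 in Smad2_KO2 (mean ± SD, n = 4 each) and was not called, with a difference of 0.05 ± 0.11 in Smad2_KO1 (SE, limma adjusted p = 0.833) and -0.01 ± 0.11 in Smad2_KO2 (adjusted p = 0.967).

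Fgf5 encodes a secreted fibroblast growth factor and is the usual transcript by which epiblast-like cells are recognised. Its most accessible interval lies 1.63 kb into the gene at chr5:98255811-98256011. In Ctrl it held normalized reads of 368, 367, 307 and 321 in WT, 296, 292, 266 and 298 in Smad2_KO1, and 287, 317, 223 and 238 in Smad2_KO2. Smad2_KO2 replicate 2 exceeded the lowest WT library, and the other knockout libraries were below all WT libraries. Relative to WT, the log2 difference was -0.24 ± 0.10 in Smad2_KO1 (SE, limma adjusted p = 0.101) and -0.37 ± 0.10 in Smad2_KO2 (adjusted p = 0.00997), so that it passed in 1 line and was not called. Several alternatives did call this interval, among them DESeq2's size factors, TMM factors, DESeq2's Wald test and the fit without WT replicate 3. In Paused, at chr5:98255809-98256009, it held 354, 310.2, 290.2 and 311 in WT, 294, 282, 252 and 213 in Smad2_KO1, and 258, 295, 230.1 and 251 in Smad2_KO2.

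Most knockout libraries were lower than WT there too, with the highest ones just above WT replicate 3. The Paused difference of -0.29 ± 0.10 in Smad2_KO1 (SE, limma adjusted p = 0.0326) and -0.29 ± 0.10 in Smad2_KO2 (adjusted p = 0.03) was called, and the call was lost without any 1 of WT replicate 1, Smad2_KO1 replicates 3 and 4 and Smad2_KO2 replicates 1, 3 and 4 (largest adjusted p = 0.176). The interval next to the Fgf5 start, with its centre 121 bases inside the gene at chr5:98254205-98254405 in the Paused table, held 92.6 ± 20.1 in WT, 89.0 ± 10.7 in Smad2_KO1, and 98.9 ± 8.74 in Smad2_KO2 (mean ± SD, n = 4 each) and was not called, with a difference of -0.04 in Smad2_KO1 and 0.11 in Smad2_KO2 (limma adjusted p = 0.86 and 0.588). The other Fgf5 intervals, 5 in Ctrl and 3 in Paused, were not called.

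Cdh2 encodes N-cadherin, the adhesion molecule that replaces E-cadherin in much of the gastrulating embryo. Of its 23 tested intervals in Ctrl, 5 were called, all lower. Of 18 in Paused, 6 were called, 5 lower and 1 higher. The called shares were 21.7% in Ctrl and 33.3% in Paused, against 7.15% and 13.9% of all tested intervals. Each call lies inside the gene, which spans 220 kb, and the files used here give no exons. The clearest element lies 81.2 kb from the lower-coordinate end at chr18:16670110-16670310. Under Ctrl its normalized reads were 71.6, 69.9, 80.0 and 67.9 in WT, 26.5, 42.1, 36.5 and 43.9 in Smad2_KO1, and 36.1, 30.9, 24.4 and 34.2 in Smad2_KO2. All knockout libraries were below all WT libraries.

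The log2 difference at this Cdh2 element was -0.96 ± 0.17 in Smad2_KO1 (SE, limma adjusted p = 0.000133) and -1.19 ± 0.17 in Smad2_KO2 (adjusted p = 4.36e-06). Under Paused its values were 60.5, 46.2, 52.9 and 82.1 in WT, 33.3, 22.7, 29.4 and 26.8 in Smad2_KO1, and 19.0, 16.5, 29.2 and 38.3 in Smad2_KO2, also without overlap. The Paused difference was -1.06 ± 0.21 in Smad2_KO1 (SE, limma adjusted p = 0.000454) and -1.24 ± 0.21 in Smad2_KO2 (adjusted p = 7.09e-05). A neighbour 76.8 kb into the gene at chr18:16665627-16665827 held normalized reads of 73.7, 73.5, 54.8 and 58.2 in WT, 45.3, 40.1, 45.9 and 35.8 in Smad2_KO1, and 40.1, 39.1, 32.9 and 27.2 in Smad2_KO2 in Ctrl and 68.0, 40.8, 44.2 and 43.7 in WT, 21.9, 19.9, 37.1 and 25.8 in Smad2_KO1, and 27.0, 18.8, 33.7 and 20.8 in Smad2_KO2 in Paused. In each table all knockout libraries were below all WT libraries. Its differences were -0.62 in Smad2_KO1 and -0.89 in Smad2_KO2 (limma adjusted p = 0.0102 and 0.000279) in Ctrl and -0.89 in Smad2_KO1 and -0.95 in Smad2_KO2 (limma adjusted p = 0.00254 and 0.00147) in Paused. Both elements passed at an adjusted p under 0.05 in every alternative fit in both tables, and that at 81.2 kb was past a log2 difference of 1 in both lines in Paused only.

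Further into Cdh2, 125 kb from the lower-coordinate end at chr18:16713467-16713667, an element held normalized reads of 108, 86.9, 106 and 90.6 in WT, 75.2, 102, 63.7 and 54.3 in Smad2_KO1, and 81.2, 69.2, 66.9 and 60.4 in Smad2_KO2 in Ctrl. Smad2_KO1 replicate 2 lay within the WT range. The log2 difference was -0.44 in Smad2_KO1 and -0.49 in Smad2_KO2 (limma adjusted p = 0.0444 and 0.0236), and it was lost without any 1 of WT replicates 1, 3 and 4, Smad2_KO1 replicates 1, 3 and 4 and Smad2_KO2 replicates 2, 3 and 4 (largest adjusted p = 0.197). The Paused libraries held 98.2, 65.5, 80.9 and 76.8 in WT, 60.8, 39.0, 47.5 and 34.8 in Smad2_KO1, and 50.9, 30.8, 40.4 and 31.7 in Smad2_KO2, without overlap. The Paused difference, -0.82 in Smad2_KO1 and -1.06 in Smad2_KO2 (limma adjusted p = 0.000915 and 4.88e-05), passed at an adjusted p under 0.05 in every alternative fit.

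At 2 weak Cdh2 intervals the WT libraries themselves fell apart. At chr18:16780663-16780863, 192 kb into the gene, the Ctrl values were 12.8, 14.3, 32.9 and 36.7 in WT, 5.98, 11.3, 12.2 and 3.47 in Smad2_KO1, and 4.01, 3.64, 3.19 and 4.03 in Smad2_KO2. WT replicates 3 and 4 were above WT replicates 1 and 2, which were close to the highest knockout libraries. On the log2 scale the difference was -1.43 in Smad2_KO1 and -2.28 in Smad2_KO2 (limma adjusted p = 0.00887 and 4.74e-05), and it was lost without either of WT replicates 3 and 4 (largest adjusted p = 0.0744). At chr18:16740815-16741015, 152 kb into the gene, the values were 11.8, 17.0, 20.8 and 32.4 in WT, 11.1, 9.25, 12.2 and 5.78 in Smad2_KO1, and 10.0, 10.9, 8.50 and 7.04 in Smad2_KO2 in Ctrl and, at chr18:16740862-16741062, 11.9, 10.7, 28.1 and 37.1 in WT, 6.65, 9.97, 11.2 and 4.97 in Smad2_KO1, and 8.99, 4.50, 7.86 and 9.85 in Smad2_KO2 in Paused. The same WT replicates were the high ones in both tables.

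The differences at that second interval were -0.98 in Smad2_KO1 and -1.01 in Smad2_KO2 (limma adjusted p = 0.0306 and 0.026) in Ctrl and -1.19 in Smad2_KO1 and -1.25 in Smad2_KO2 (limma adjusted p = 0.0163 and 0.0123) in Paused. The Ctrl call was lost without any 1 of WT replicates 3 and 4, Smad2_KO1 replicates 2 and 4 and Smad2_KO2 replicates 3 and 4 (largest adjusted p = 0.18). The Paused call was lost without any 1 of WT replicates 3 and 4, Smad2_KO1 replicate 4 and Smad2_KO2 replicate 2 (largest adjusted p = 0.11). The single higher Cdh2 call, 72.0 kb into the gene at chr18:16660884-16661084 in Paused, held 11.1 ± 3.70 in WT, 18.7 ± 5.39 in Smad2_KO1, and 22.2 ± 3.87 in Smad2_KO2 (mean ± SD, n = 4 each). It was lost without any 1 of WT replicates 1 and 4, Smad2_KO1 replicates 2, 3 and 4 and Smad2_KO2 replicates 1, 2 and 3 (largest adjusted p = 0.204), and with DESeq2's size factors. The strongest Cdh2 interval in Ctrl lay 25.9 kb into the gene at chr18:16614783-16614983 and held 138 ± 9.96 in WT, 111 ± 4.23 in Smad2_KO1, and 112 ± 13.8 in Smad2_KO2 (mean ± SD, n = 4 each). It was not called, with a difference of -0.31 in Smad2_KO1 and -0.30 in Smad2_KO2 (limma adjusted p = 0.071 and 0.085). DESeq2's size factors and TMM factors did call it, as did the fits with 1 knockout group. Its partner in Paused, at chr18:16614798-16614998, was called lower, and is named here after its values were seen. It held 139 ± 11.3 in WT, 107 ± 19.5 in Smad2_KO1, and 105 ± 3.19 in Smad2_KO2 (mean ± SD, n = 4 each), with all knockout libraries below all WT libraries and a difference of -0.38 in Smad2_KO1 and -0.40 in Smad2_KO2 (limma adjusted p = 0.022 and 0.018). That call was lost without any 1 of WT replicate 4, Smad2_KO1 replicates 2 and 4 and Smad2_KO2 replicate 2 (largest adjusted p = 0.12). The strongest Cdh2 interval in Paused was near the higher-coordinate end of the gene at chr18:16808185-16808385, with 142 ± 31.1 in WT, 137 ± 4.05 in Smad2_KO1, and 135 ± 10.00 in Smad2_KO2 (mean ± SD, n = 4 each).

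Omitting a pair of libraries ended further calls in the list above. Without replicate 4 of both knockout lines, the Ctrl calls lost were those of Otx2 at chr14:48639234-48639434, the Zic2 and Zic5 window at chr14:122468593-122468793, Pou3f1 at chr4:124668171-124668371, Grhl2 at chr15:37262492-37262692 and chr15:37289849-37290049, and Cdh2 at chr18:16713467-16713667 and chr18:16740815-16741015, as well as a further Pou3f1 interval at chr4:124647964-124648164. Without replicate 2 of both lines, the Paused calls lost were those of Otx2 at chr14:48639221-48639421 and chr14:48656474-48656674, Pou3f1 at chr4:124657411-124657611, Foxd3 at chr4:99640782-99640982 and chr4:99642036-99642236, and Cdh2 at chr18:16660884-16661084, chr18:16740862-16741062 and chr18:16614798-16614998. Without WT replicates 3 and 4, the Ctrl calls lost were that same further interval and those of Pou3f1 at chr4:124652994-124653194, Otx2 at chr14:48639234-48639434, Foxd3 at chr4:99636152-99636352 and chr4:99642082-99642282, Grhl2 at chr15:37289849-37290049, chr15:37354648-37354848 and chr15:37347563-37347763, and Cdh2 at chr18:16780663-16780863, chr18:16713467-16713667 and chr18:16740815-16741015. In Paused they were those of Otx2 at chr14:48639221-48639421 and chr14:48656474-48656674, Foxd3 at chr4:99642036-99642236, and Cdh2 at chr18:16660884-16661084, chr18:16740862-16741062 and chr18:16614798-16614998. Fits without a pair have fewer libraries by construction. The further Pou3f1 interval and the Grhl2 one at chr15:37347563-37347763 are named here because of these values.

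**Figure D3:**
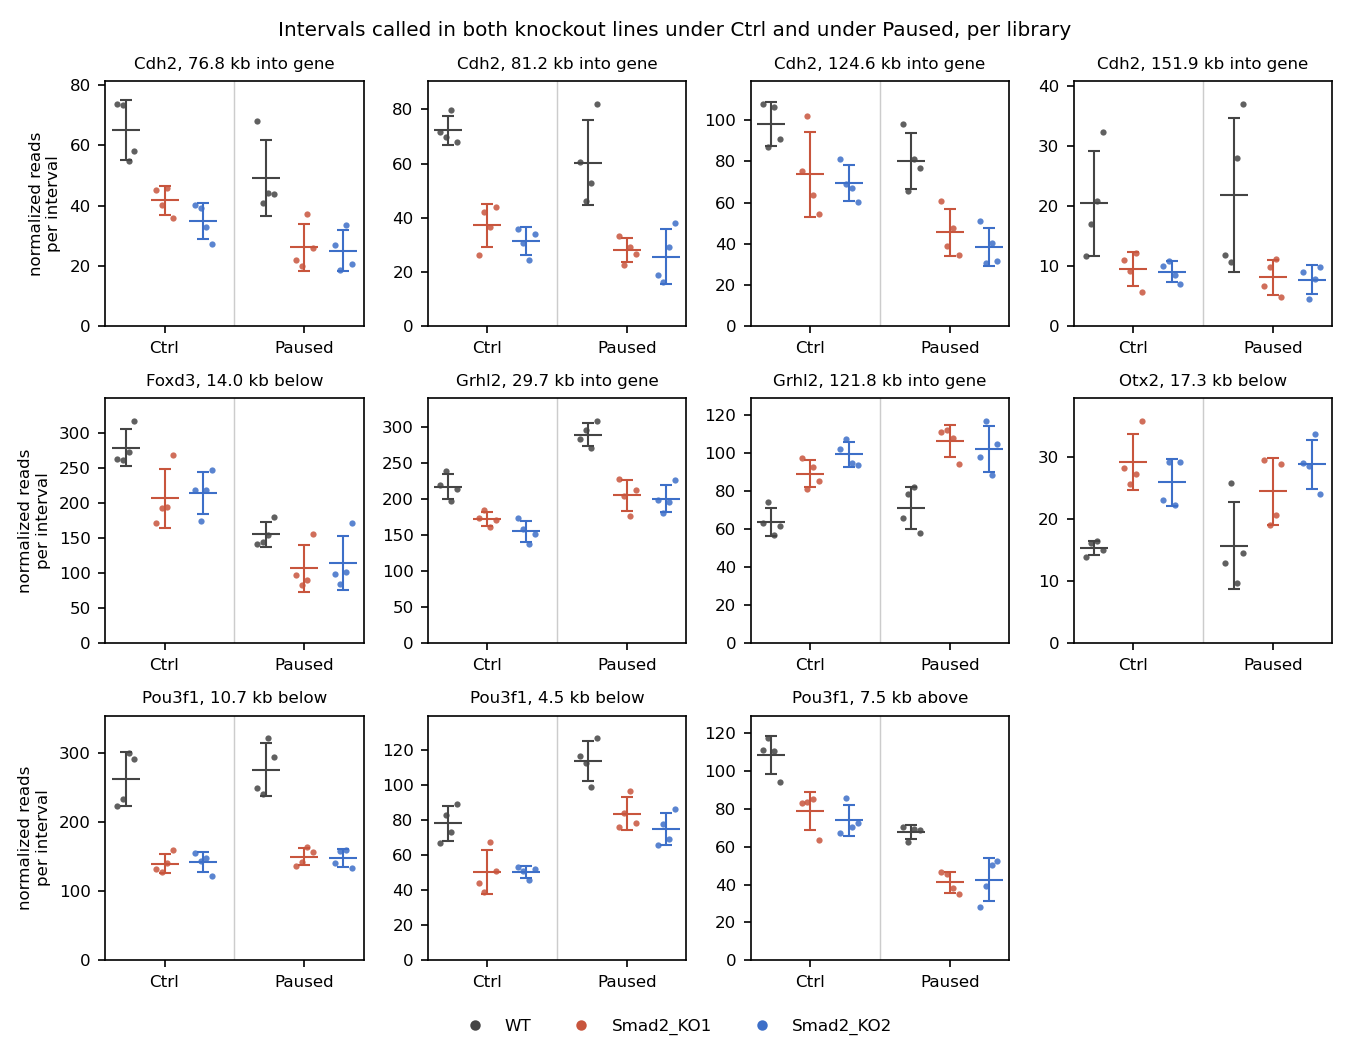
Each panel is 1 of the 11 elements called in both knockout lines in both tables, with normalized reads per interval on the vertical axis, 1 point per library and the mean and SD of 4 libraries per line; titles give the gene and the distance from it or from its lower-coordinate end. The knockout lines are below WT in 9 panels and above it in the Otx2 panel and 1 Grhl2 panel, and WT points spread widely at the weak Cdh2 element 151.9 kb into the gene.

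The elements could be followed from Ctrl to Paused. A one-to-one partner overlapping by at least 50% of each interval was found for 99 members, 73.9% of the members in Ctrl. Both partners were tested in 97 pairs. Of these, 17 were called in Ctrl and 19 in Paused, and 11 were called in both with the same sign, 9 lower and 2 higher. Of all 208526 pairs tested in both tables, 4.91% were called in both with the same sign, 2.32% lower and 2.59% higher. The 11 are 64.7% of the members' Ctrl calls and 57.9% of their Paused calls, where the shares over all pairs were 59.97% and 33.0%. No pair was called in opposite directions, and the same held for all 208526 pairs, so it is not particular to the members. Each of the 17 and 19 called intervals had the same sign in the other table. The share of all called intervals that kept their sign is not given here. Across the 97 pairs, the log2 differences had a Pearson r of 0.79 and a Spearman rho of 0.76, as a description across intervals that share their DNA, lines and neighbourhood and are not independent.

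**Figure D4:**
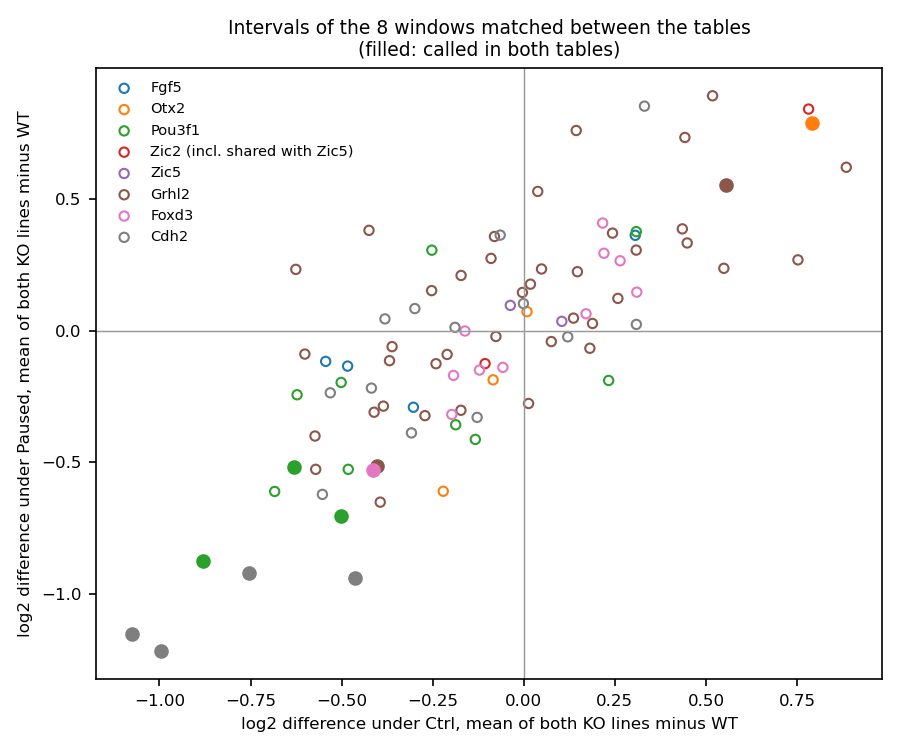
Each point is 1 of the 97 member elements tested in both tables, with the log2 difference between the mean of both knockout lines and WT under Ctrl on the horizontal axis and under Paused on the vertical axis. Filled points are the 11 elements called in both tables, 9 in the lower left and 2 in the upper right.

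Levels in Ctrl and Paused were set side by side and not tested, because the tables were normalized separately. Over the 99 matched members the median log2 ratio of Paused to Ctrl was 0.01 in WT, 0.04 in Smad2_KO1 and 0.06 in Smad2_KO2. Over all 215826 matched intervals it was 0.08, 0.10 and 0.11, with 10th and 90th percentiles of -0.49 and 0.59 in WT. At 7 of the 99 members the Ctrl and Paused libraries did not overlap in any of the 3 lines, 5 higher and 2 lower in Paused. Of all matched intervals 8.20% did the same, 6.43% higher and 1.76% lower, so the members' share is near that of the whole. They are named here because of these values. The widest shift was in Grhl2 at chr15:37347563-37347763, from 22.9 to 80.9 normalized reads in WT, from 39.4 to 99.7 in Smad2_KO1 and from 38.5 to 95.9 in Smad2_KO2.

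A second Grhl2 element, at chr15:37313506-37313706, went from 43.6 to 76.5 in WT, and a Foxd3 element 2.47 kb upstream of the gene, at chr4:99653629-99653829, went from 67.5 to 118 in WT. The strongest Otx2 interval went from 274 to 400 in WT, from 252 to 343 in Smad2_KO1 and from 264 to 357 in Smad2_KO2. The Pou3f1 element 4.45 kb from the gene was also higher in Paused, at 114 against 78.4 in WT. The lower pair were the Foxd3 element 14.0 kb upstream, from 279 to 155 in WT, from 207 to 107 in Smad2_KO1 and from 214 to 114 in Smad2_KO2, and the Pou3f1 element 7.52 kb from the gene, from 108 to 67.6 in WT. Among these elements, 3 were also called lower in the knockout lines in both Ctrl and Paused. The share of all lower intervals with such a shift is not given here. A link between the 2 differences was not tested.

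The intervals whose log2 values ran most like those of the leading Pou3f1 element over 12 libraries lay near other genes. In Ctrl they were nearest to Mmp16 (Pearson r = 0.986, 324 kb away), Spats2l (0.983, inside the gene) and Jrkl (0.979, 862 kb away). In Paused they were nearest to Abca1 (0.983, 66.3 kb away), Adgrl2 (0.983, 325 kb away) and Mast4 (0.982, inside the gene). They are the highest of all intervals outside the 8 windows, so the values describe a selection.

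Other genes of the formative and primed states, and of the naive state, were taken as 2 lists. Their counts stand against the windows of all protein-coding genes, of which 3.35% were called higher and 5.04% lower in Ctrl. In Paused, 6.62% of all windows were higher and 20.6% lower. Of 16 formative and primed genes, no window was higher in Ctrl and 5 were lower, those of Eomes, Krt18, Sall2, T and Utf1. In Paused, none was higher and 8 were lower, those of Cldn6, Dnmt3b, Etv4, Krt18, Nodal, Sall2, T and Utf1. T encodes the mesoderm factor Brachyury and Nodal the ligand upstream of SMAD2. The median window difference of the list was -0.17 in Ctrl and -0.12 in Paused on the log2 scale, and that of the 8 genes -0.12 and -0.12. By interval, 6 of 289 were called higher and 23 lower in Ctrl, and 17 of 286 higher and 20 lower in Paused. These are 2.08% and 7.96% in Ctrl, where 3.95% of all tested intervals were higher and 3.20% lower. In Paused they are 5.94% and 6.99%, against 9.01% and 4.92% of all tested intervals.

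Of 14 naive genes, 2 windows were higher in Ctrl, those of Tbx3 and Zfp42, and none was lower. In Paused, the window of Nr5a2 was higher and that of Nanog lower. The list's median window difference was 0.03 in Ctrl and -0.01 in Paused. By interval, 9 of 272 were higher and 3 lower in Ctrl, and 19 of 239 higher and 8 lower in Paused. Higher calls were thus 3.31% in Ctrl and 7.95% in Paused, against 3.95% and 9.01% of all tested intervals. Calls in either direction were 4.41% and 11.3%, against 7.15% and 13.9%. These shares of the naive list lay below those of all tested intervals. Whether the 2 lists differ from each other was not tested.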

How the data were processed

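The measurements were ATAC-seq on 24 libraries. Reads were trimmed with Trim Galore, aligned to mm10 with Bowtie2 2.4.1, called into peaks with MACS3 3.0.3 and counted with DiffBind 3.16.0, per the submitters' processing notes; parameters, duplicate handling and read shifting are not given in the sources used here. Per the file headers, each of the authors' 2 deposited tables, 1 per treatment, holds intervals, 12 library columns of normalized signal, log2 concentrations, a log2 fold change of 8 knockout against 4 WT libraries, and its p-value and false discovery rate. The normalized signal was read from the deposited values as reads divided by 1 factor per library, and whole reads were recovered from these steps. In every library 100% of values lay on whole multiples of its step, where at most 1.51% would by chance. This held also in the 4 columns with a step near 1.

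Members and gene lists were chosen with earlier results of these data known. Gene positions, names and promoters came from RefSeq on GRCm38.p6, the assembly of mm10, which gave promoter windows for 4 of the 8 genes. The test was limma 3.58.1 (empirical Bayes with a trend, R 4.3.3) on log2(value + 1), with all 12 libraries of a table and a term for line, after a filter of at least 10 in at least 4 libraries. Window sums were fitted the same way over all protein-coding genes. Intervals were named by rule: the strongest in a window, the strongest within 1 kb of a start, the largest call in each direction, and those called in both tables. Alternatives were edgeR 4.0.16 and DESeq2 1.42.0 on the recovered reads, other scalings, pseudocounts, filters, window sizes, a replicate block and omissions of libraries. Those that average or drop knockout libraries of 1 number, or drop WT replicates 3 and 4, were chosen after seeing the data. On simulated data over 282089 Ctrl intervals the test recovered 38% of 100 intervals changed by 1 on the log2 scale and 84% of 100 changed by 2. Over 260539 Paused intervals it recovered 45% and 91%. No other intervals were changed there, while 7.15% of intervals in Ctrl and 13.9% in Paused were called in the data. The Benjamini-Hochberg adjustment was thus stricter in the simulation, which also gave all intervals 1 dispersion and took the libraries as independent. The recovered shares need not hold for the data. The labels do not say what a shared replicate number means.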

Additional observations from a re-analysis of the deposited data

Results flagged for a closer look

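A library was singled out when it stood apart from the other 3 of its group by more than Dixon's test allows at 95%. Of 204 groups of 4 searched, 11 had such a library, where chance alone would give about 1 in 20 groups, or 10.2. Those in Ctrl were as follows. WT replicate 2 held 309.9 normalized reads at the strongest Otx2 interval, where the other WT libraries held 261 to 263. Smad2_KO2 replicate 4 held 279 at the Pou3f1 interval next to the gene, against 243 to 248. WT replicate 3 held 123 at the called interval between Zic5 and Zic2, against 161 to 169. WT replicate 4 held 175 at the Foxd3 interval 19.9 kb upstream, against 188 to 189. WT replicate 1 held 153 at the strongest Cdh2 interval, against 132 to 135. Smad2_KO1 replicate 4 held 63.5 at the Pou3f1 element 7.52 kb from the gene, against 82.9 to 85.3. The Otx2 window sum of Smad2_KO2 replicate 1 was 683, against 759 to 766.

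In Paused, WT replicate 3 held 106 normalized reads at the interval upstream of the Otx2 start, against 151 to 158 in the other WT libraries. Smad2_KO2 replicate 4 held 16.4 at the weak Cdh2 interval 72.0 kb into the gene, against 23.6 to 24.8. WT replicate 1 held 68.0 at the Cdh2 element 76.8 kb into the gene, against 40.8 to 44.2. WT replicate 2 held 62.3 at the Pou3f1 element 7.53 kb from the gene, against 68.9 to 70.2.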

How the results depend on the processing

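No called interval or window reversed in any alternative run. Of 35 named called intervals, 11 held at an adjusted p under 0.05 in every alternative fit and 15 whenever 1 library was left out, and 3 were past an absolute log2 difference of 1 in both lines, 1 of them among the 11. The Ctrl count of 18 intervals became 1 at an absolute log2 difference of at least 1, 33 with the 8 knockout libraries as 1 group, 10 without replicate 4 of both knockout lines, 10 without WT replicates 3 and 4, 9 within gene bodies and 11 with a 5 kb extension. It ran from 11 to 16 with 1 library left out, lowest without WT replicate 4. The Paused count of 21 became 2 at that fold, 39 with 1 knockout group, 13 without replicate 2 of both knockout lines, 12 within gene bodies and 35 with a 50 kb extension, and ran from 14 to 23 with 1 library left out. The Ctrl count of 2 windows became 1 for the mean of log2 values, 5 with DESeq2's size factors, 4 with TMM factors, 1 for gene bodies and 1 with a 5 kb extension, and ran from 2 to 3. The Paused count of 3 windows became 1 for the mean of log2 values and 6 with size factors, and ran from 2 to 4. The causes of these changes were not tested, apart from the windows and libraries being fewer or more by construction. The shares over all windows under these settings are not given here. Nor are those over all intervals with 1 knockout group, other window extensions or the replicate block. Whether the members' counts there follow the whole table was not tested. Counts between the knockout lines were 0 in each alternative. With 90% overlap the share of Ctrl members with a partner fell from 73.9% to 46.3%.

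The deposited scaling left a median log2 difference over all intervals of 0.08 in Ctrl and 0.12 in Paused, and DESeq2's size factors one of 0.01 and 0.02. As a check of pairing, deviations of same-numbered libraries from their group means correlated at -0.01 to 0.05 between WT and the knockout lines under Ctrl and -0.01 to 0.06 under Paused, and at 0.01 to 0.11 and 0.03 to 0.19 between the knockout lines. Not every pair passed 0.1, so the replicate block stayed an alternative, although by read counts the same-numbered knockout libraries were alike. The blocked fit called 22 intervals in Ctrl and 23 in Paused, and 3 windows in each, and changed the call of 1 named interval, in Otx2. Precision rests on 4 libraries per group, so an uncalled weak interval may still differ. In the simulation, a change of 1 on the log2 scale was recovered in under 50% of changed intervals. With few changed intervals and 1 dispersion there, that share need not hold for the data.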
